A study of Mus musculus with 2 samples.

Results

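The dorsal neural tube and roof plate cells were 280 of the 21723 cells sequenced from mouse embryos at E9.5, 145 of 11958 in the wild-type (WT) library and 135 of 9765 in the Prdm6 knockout (KO) library. Each was chosen by its own transcripts. A cell had at least 2 unique molecular identifiers (UMIs, each a tag of 1 captured transcript) summed over Wnt1, Wnt3a, Lmx1a, Rspo1 and Olig3, and at least 1 over Sox1, Sox2, Sox3, Pax3, Zic1 and Zic2. It had none of Shh, Foxa2, Epcam or Sox10, which mark the floor plate, epithelia and migrating neural crest. Gdf7, a further roof plate gene, was not analysed here, so the rule worked on 5 dorsal genes. Because these genes chose the cells, their levels in the cells are a description and not a finding.

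Prdm6 encodes a histone methyltransferase of the PRDM family, and the study asked what its loss in the neural crest lineage does to cells that go on to the heart. Both libraries came from C57BL/6 embryos that carried the Wnt1-Cre2 transgene and the ZsGreen1 reporter, so the WT embryos also carried Cre. The KO embryos were Prdm6f/f; Wnt1-Cre2; ZsGreen1 and the WT embryos Prdm6+/+; Wnt1-Cre2; ZsGreen1, and Cre was driven by sequence of Wnt1, one of the genes used here to choose the cells. The tissue ran from the middle of the otic placode to the back of the fourth somite and was taken whole, so the label cardiac neural crest covers hindbrain neural tube, mesenchyme, heart, vessel and blood cells as well.

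There was 1 library per genotype. Embryos were pooled in each library and no table used here ties a cell to its embryo, so no test over animals was possible and no p-value is given. Intervals are exact 95% intervals of counting error only, and every difference between KO and WT compares these 2 libraries, not the genotypes. Levels are UMIs of a gene per 1000000 UMIs of the same cells (CPM), and ratios are on the log2 scale. The libraries held 20781384 (WT) and 18936857 (KO) UMIs with a median of 1597 and 1703 per cell. The dorsal cells were deeper, with a median of 2042 (range 984 to 3993) in WT and 2380 (968 to 4072) in KO. A cell that was read more deeply had more chances to pass the rule. The libraries shared 26 cell barcodes, and 1 WT and 2 KO dorsal cells had such a barcode.

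The roof plate is the strip of cells at the dorsal midline of the neural tube. It secretes Wnt and BMP proteins that set the identity of the progenitors beside it, and the neural crest leaves the tube from the same territory. Olig3 marks the dorsal progenitors next to the roof plate, Lmx1a is the transcription factor that specifies the roof plate, Wnt1 and Wnt3a are its secreted Wnt ligands, and Rspo1 is a secreted protein that strengthens Wnt signalling.

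Olig3 and Wnt1 supplied most of the UMIs that chose the cells. Olig3 (chr10:19356533-19358604, GRCm38) had 283 UMIs in 108 WT dorsal cells and 269 in 104 KO dorsal cells. Wnt1 (chr15:98789857-98793837) had 119 UMIs in 58 WT cells and 126 in 63 KO cells. Rspo1 (chr4:124986430-125009099) had 70 and 48 UMIs, Wnt3a (chr11:59248033-59290752) 22 and 20, and Lmx1a (chr1:167689237-167848741) 13 and 10, WT first. Lmx1a was thus seen in 10 WT and 8 KO dorsal cells, and at this depth a cell with no UMI of it may still have expressed it. A single dorsal gene was seen in 80 WT and 61 KO cells, a pair of them in 47 and 57, and 3 of them in 16 and 14. Wnt1 and Olig3 occurred together in 45 cells of each library, and Wnt1 and Wnt3a in 12 WT and 10 KO cells.

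The dorsal cells lay on a slope of counts with no gap at the threshold. Just inside it, 59 WT and 59 KO cells had exactly 2 dorsal UMIs. Just outside it, 362 WT and 286 KO cells had exactly 1 with the rest of the rule met. The neural part of the rule removed 60 WT and 35 KO cells with at least 2 dorsal UMIs, and the excluded genes removed 24 and 14. In the cells kept, no UMI of Sox1, Sox2 or Sox3 was seen in 38 (26.2%) WT and 28 (20.7%) KO cells, which passed on Pax3, Zic1 or Zic2. Free RNA in the droplets can give such counts too. At least 2 dorsal UMIs were seen in 5 of 563 erythroid cells (0.888%, median depth 2020 UMIs) and 4 of 829 endothelial cells (0.483%, 2045 UMIs) of the WT library. In KO they were seen in 3 of 220 (1.36%, 2453 UMIs) and 2 of 627 (0.319%, 2514 UMIs). Among cells of any kind the share was 1.92% in WT and 1.88% in KO, and the whole rule was met by 1.21% and 1.38% of cells, against 0.355% and 0.455% of erythroid and 0.241% and 0.159% of endothelial cells. The interval of the erythroid share with at least 2 dorsal UMIs contains the share of all cells in both libraries. It was 0.289% to 2.06% in WT and 0.282% to 3.93% in KO, where few erythroid cells were read. Some of the dorsal cells may thus have passed on free RNA.

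As a description of how the 5 genes of the rule occurred together, each was read in cells chosen with the other dorsal genes alone (at least 2 UMIs over those, the rest of the rule unchanged), so that its own count did not choose the cells. They were set beside neural cells without the other dorsal genes, which had at least 2 UMIs of Sox1, Sox2 and Sox3 and so were chosen in another way. All 5 had a higher CPM in the cells chosen with the others, in both libraries. Wnt1 had 69 UMIs in 121 WT cells, which is 266 CPM (207 to 337), and 83 in 111 KO cells, 304 CPM (242 to 377). In neural cells without the other genes its level was 11.7 and 8.72 CPM. Wnt1 was seen in 28.1% of the WT and 35.1% of the KO cells so chosen, against 1.42% and 1.54%, and in 22.2% and 23.5% against 0.732% and 1.79% after every cell was thinned to 1000 UMIs.

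Olig3 read this way reached 431 CPM (332 to 551) in 65 WT cells and 324 CPM (237 to 432) in 55 KO cells, against 89.9 and 69.4 CPM. The other genes were sparser. Rspo1 had 19 UMIs in WT and 14 in KO (73.2 and 51.1 CPM, against 14.5 and 11.1). Wnt3a had 17 and 15 UMIs (56.5 and 46.9 CPM, against 2.22 and 0.807). Lmx1a had 8 and 7 UMIs (26.2 and 21.7 CPM, against 9.48 and 3.21). After thinning, Lmx1a was seen in 1.59% of 63 WT cells, against 0.732%, and in 0 of 50 KO cells, which allows a share of up to 6%, against 0.303%, so its order could not be read at equal depth.

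**Figure D1:**
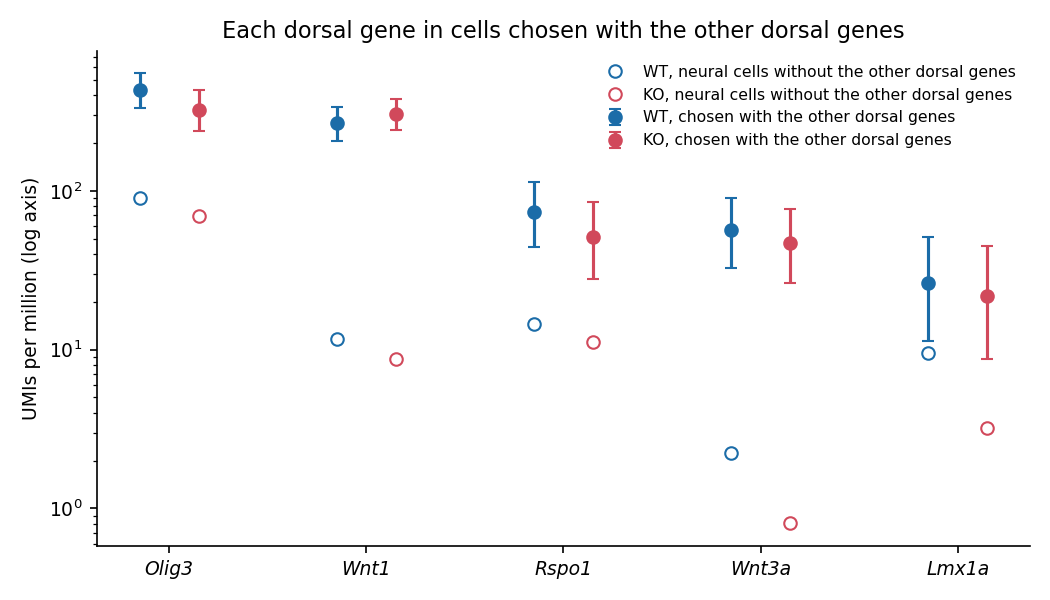
Level of each dorsal gene, in CPM on a log axis, in cells chosen with the other dorsal genes and in neural cells without those genes, for the WT and KO libraries, with exact 95% intervals of counting error. In both libraries every gene is higher in the cells chosen with the other genes, Wnt1 at 266 and 304 CPM against 11.7 and 8.72.

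Outside the rule, other genes of the dorsal midline were among those that set the dorsal cells apart. The comparison was with 761 WT and 639 KO other neural cells, which had at least 2 UMIs of Sox1, Sox2 and Sox3, no dorsal UMI and no excluded gene, at a median depth of 1641 and 1750 UMIs. Of 9046 genes with at least 30 UMIs, 78 (0.862%) were at least 2-fold higher in the dorsal cells in both libraries and 88 (0.973%) at least 2-fold lower. Of the 14 roof plate and dorsal midline genes with enough UMIs, 9 were at least 2-fold higher in both and 0 lower. Among them were Msx1, Msx2, Msx3, Zic4, Zic5, Gdf10, Wnt4 and Rspo3. Their whole list summed to 1390 CPM against 423 in WT (log2 1.72, 1.53 to 1.90) and 1230 against 341 in KO (1.85, 1.65 to 2.05), while the median gene differed by 0.01 in each library.

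Msx1 and Zic5 led. Msx1 (chr5:37820485-37824583), a homeobox gene that BMP signals switch on, had 106 UMIs in WT dorsal cells, 341 CPM against 56.5 in other neural cells (log2 2.60, 2.16 to 3.04). In KO it had 92 UMIs, 281 CPM against 32.3 (3.12, 2.57 to 3.70). Of the 145 WT dorsal cells 59 held it, as did 51 of the 135 KO cells, with at most 10 UMIs, and it was at 0 in the rest. At equal depth the share was 33.3% of WT dorsal cells against 5.16% of other neural cells, and 34.0% against 3.65% in KO.

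Zic5 (chr14:122456795-122465677), a zinc finger transcription factor of the dorsal neural tube and neural crest, had 367 CPM against 58.0 in WT (log2 2.66, 2.24 to 3.10) and 385 against 48.4 in KO (2.99, 2.54 to 3.46). At equal depth it was seen in 34.9% of WT dorsal cells against 5.65%, and in 30% against 5.17% in KO. Its relative Zic4 had 11 UMIs in WT and 13 in KO, at ratios of 1.67 and 1.81. Msx2 had 15 and 12 UMIs, at ratios of 2.32 and 1.50. Msx3 (chr7:140046157-140049089), the Msx gene of the dorsal neural tube, was higher by 1.44 in WT and 1.42 in KO.

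Among the ligands and antagonists, Wnt4 (chr4:137277489-137299726) stood at 96.6 CPM against 17.8 in WT (log2 2.44, 1.62 to 3.28) and 58.1 against 18.6 in KO (1.64, 0.69 to 2.59). Rspo3, a secreted enhancer of Wnt signalling like Rspo1, was higher by 1.43 and 1.75. Nog, a secreted BMP antagonist made at the dorsal midline, had 10 UMIs in each library, at 1.74 and 2.43. The BMP ligands themselves were near the limit of this depth: Bmp4 had 6 and 7 UMIs, Bmp5 3 and 4, Bmp6 8 and 2, Bmp7 9 and 1, and Gdf10 6 and 7, WT first. Of these, Gdf10 alone was at least 2-fold higher than in other neural cells in both libraries with enough UMIs, and its intervals reached below 0 (1.38, -0.36 to 2.98 and 1.27, -0.34 to 2.77). For Bmp7 these counts gave a KO over WT ratio of -3.25 (-8.70 to -0.39).

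On the receiving side, 2 of 19 genes of the Wnt list were at least 2-fold higher and 1 lower. Axin2 (chr11:108920349-108950783), a feedback gene that Wnt signalling turns on in most tissues, was at 261 CPM against 70.6 in WT (log2 1.89, 1.44 to 2.33) and 229 against 74.3 in KO (1.63, 1.17 to 2.08). Fzd10 (chr5:128600844-128604093), a Wnt receptor of the dorsal neural tube, was at 219 against 50.5 (2.12, 1.61 to 2.62) and 196 against 44.4 (2.14, 1.60 to 2.69). Tcf7l1, a repressor of Wnt target genes, was lower, at -1.46 in WT and -1.06 in KO. Over the list as a whole the sums differed little, at 0.09 and 0.11. Of 18 genes of the BMP list 4 were at least 2-fold higher (Nog, Id3, Msx1 and Msx2) and 0 lower. The list summed to 0.74 in WT and 0.76 in KO, but its median gene was at 0.19 and 0.27. Msx1 and Msx2 are also on the roof plate list. Id3, a direct target of BMP signals that holds back differentiation, was higher by 1.04 and 1.14, and its relative Id2 by 0.78 and 0.80.

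Of the 7 dorsal progenitor transcription factors with enough UMIs, 2 were at least 2-fold higher, Pax7 (13 and 17 UMIs, 2.12 and 2.42) and Id3. The median gene of this list was at 0.08 in WT and 1.14 in KO, and Id3 is also on the BMP list. Pax7 is a paired box gene of dorsal progenitors and early crest. Atoh1, which marks the first progenitors beside the roof plate, had 2 and 6 UMIs. Neurog1, a proneural gene, had 5 and 9. At these counts the position of the cells along the dorsal tube was little resolved.

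Among all genes, the 12 furthest above other neural cells also held Casz1, a zinc finger transcription factor (log2 2.35 and 2.58), and Cdon, a cell surface co-receptor for Hedgehog (2.02 and 2.50). They held Wfikkn1, a secreted protease inhibitor domain protein (2.27 and 1.84), Zcchc18 (2.16 and 2.30), the long noncoding RNA Rmst (1.72 and 1.81) and the calcium channel gene Cacna1g (1.75 and 1.68). Cdon had 42 UMIs in WT dorsal cells and 48 in KO, and Casz1 had 40 and 41.

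The gene with the steepest difference was Gm48898, a noncoding gene at chr12:8291024-8293694 on the minus strand. It had 24 UMIs in WT dorsal cells, 77.3 CPM against 3.71 in other neural cells (log2 4.38, 2.96 to 6.13). In KO it had 14 UMIs, 42.8 CPM, against none in other neural cells, at least 17.7-fold higher than the 3 counts that a count of 0 allows there. It begins 4223 bases past the 3′ end of Gdf7 (chr12:8297918-8301954) on the same strand, a fact looked up after the values were seen. These 3′ tags cannot tell transcripts of the noncoding gene from transcripts that run past the end of its neighbour.

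**Figure D2:**
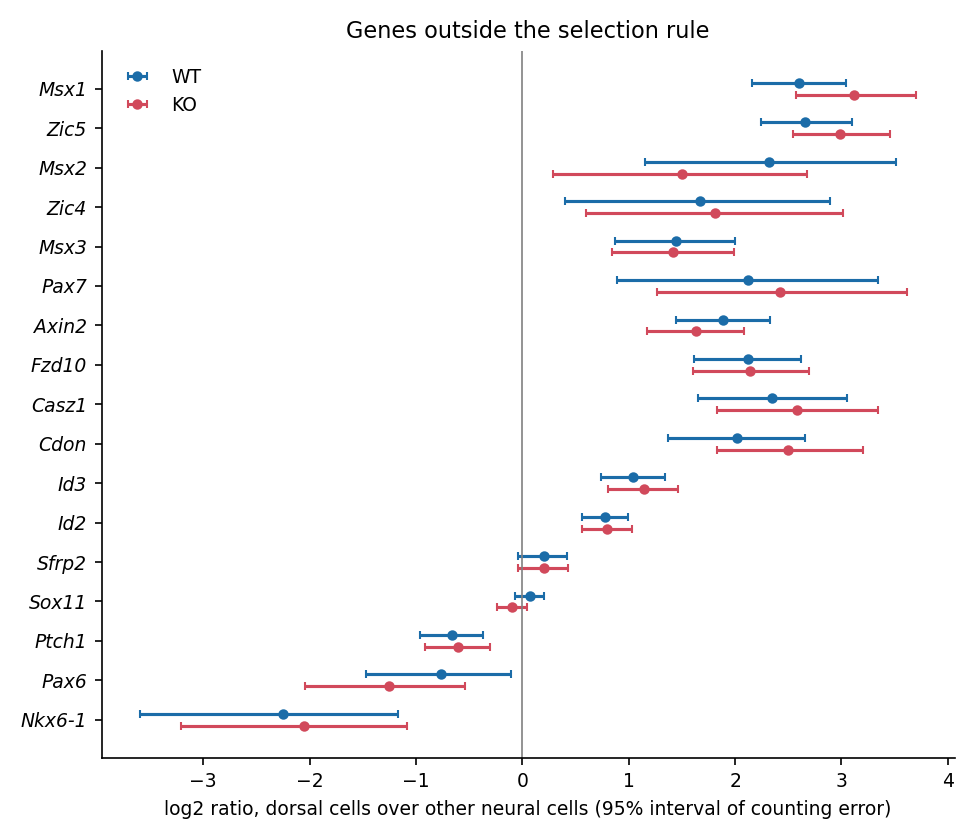
Log2 ratio of the dorsal cells over other neural cells for named genes, WT and KO libraries side by side, with exact 95% intervals of counting error and a line at 0. Msx1 (2.60 and 3.12) and Zic5 (2.66 and 2.99) lie above 0 and Nkx6-1 (-2.25 and -2.05) below it in both libraries.

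Ventral genes were low in the dorsal cells. Of 13 intermediate and ventral progenitor genes with enough UMIs, 5 were at least 2-fold lower in both libraries (Dbx1, Nkx6-1, Nkx6-2, Nkx2-2 and Prdm8) and 0 higher, and the list was at -0.81 (-1.02 to -0.60) in WT and -0.82 (-1.04 to -0.60) in KO. Nkx6-1, a homeobox gene of the ventral tube, had 7 UMIs in WT dorsal cells against 144 in other neural cells (-2.25, -3.59 to -1.17) and 9 against 141 in KO (-2.05, -3.21 to -1.08). Pax6, of intermediate progenitors, was at -0.76 and -1.25. Ptch1, the Hedgehog receptor and target gene, was at -0.66 and -0.60. Some ventral transcripts were still present at low counts, since the rule removed only cells with Shh or Foxa2.

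Of 13 neuron genes with enough UMIs, 8 were below other neural cells in both libraries, beside 2473 of 9046 over all genes. Of these 8, 2 were at least 2-fold lower, and 0 of the 13 were at least 2-fold higher. The list sum stood at -0.30 (-0.61 to -0.01) in WT and -0.50 (-0.80 to -0.21) in KO, with a median gene at -0.14 and -0.72. Of the neural crest list, 0 of 18 genes were at least 2-fold higher in both libraries and Erbb3 was lower. Foxd3, the early crest specifier, had 9 UMIs in WT (2.70, 1.05 to 4.47) but 2 in KO, and Snai2 had 8 and 9 UMIs. The 8 genes furthest below other neural cells included Fgf3 (2 UMIs against 51 in WT, 0 against 10 in KO) and Gata3 (1 against 25, 0 against 17), both genes of the otic region and hindbrain, and Eng (1 against 32, 1 against 19), a gene of vessel endothelium. They also included Brms1 (0 against 26, 1 against 23) and Coro2b (0 against 19 in each library), which are on no list used here.

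Against the 203 WT and 203 KO other neural cells that also held Pax3, Pax7, Zic1 or Zic2, 40 of 6740 genes (0.593%) were at least 2-fold higher in both libraries and 14 (0.208%) lower. Msx1 was then higher by 3.04 (2.29 to 3.96) in WT and 2.76 (2.04 to 3.63) in KO, and Zic5 by 2.03 and 2.36. Fzd10 was at 1.86 and 1.35. Cdon (2.14 and 2.43), Casz1 (1.84 and 2.09), Wnt4 (2.28 and 1.40), Msx2 (2.04 and 1.83), Zcchc18 (2.01 and 2.02) and Rmst (1.54 and 1.94) also stayed over 2-fold in both libraries. Zic4 was at 0.87 (-0.59 to 2.51) and 1.03 (-0.32 to 2.54), under 2-fold in WT. Msx3 was under it in both at 0.93 and 0.75, as was Pax7, one of the genes that chose the compared cells, at 0.26 (-0.97 to 1.48) and 0.84 (-0.29 to 2.06).

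A further set of 126 WT and 109 KO cells was chosen for the opposite pole of the tube. These had at least 2 UMIs summed over Shh and Foxa2 and a Sox1, Sox2 or Sox3 UMI. The surface ectoderm list stood at 380 and 239 CPM in them. It stood at 203 and 166 in other neural cells and 90.2 and 94.7 in the dorsal cells. Epithelial cells from outside the tube may thus be in this set. Against it 59 of 6150 genes (0.959%) were at least 2-fold higher in the dorsal cells in both libraries and 113 (1.84%) lower. Of 8 roof plate genes with enough UMIs, 6 were higher. Msx1 was higher by 3.80 and 5.14, Zic5 by 4.49 and 4.60, Fzd10 by 2.74 and 3.03, and Axin2 by 2.00 and 1.60. Id3, a BMP target, differed by 0.22 and 0.20, so its level was similar in both sets.

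A set of 247 WT and 173 KO cells had at least 2 UMIs of Sox10, a gene of migrating crest. The otic and placode list stood at 158 and 150 CPM in this set. It stood at 79.5 and 80.7 in other neural cells and 51.5 and 45.8 in the dorsal cells. Otic cells may thus be among the Sox10 cells. Against them 116 of 7323 genes (1.58%) were at least 2-fold higher in the dorsal cells in both libraries and 108 (1.47%) lower. Of 10 roof plate genes 7 were higher, and 8 of 18 crest genes were lower. Msx1 was higher by 3.70 and 4.02, Fzd10 by 3.60 and 4.67 and Axin2 by 1.95 and 1.57, and Sox9, a crest specifier, was lower, at -1.81 and -3.10. The crest list summed to 2600 CPM in WT dorsal cells against 4780 in Sox10 cells (-0.88, -0.99 to -0.77) and to 2080 against 4760 in KO (-1.20, -1.32 to -1.07). The rule had removed cells with Sox10, and 10 WT and 7 KO cells failed it on Sox10 alone.

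The midline genes were higher the more dorsal UMIs a cell held, in bins of 0, 1, 2 and 3 or more. The cells sorted had at least 1 UMI over Sox1, Sox2, Sox3, Pax3, Zic1 and Zic2 and no excluded gene. This loose choice took in 4649 of 11958 WT cells, so the bins also differed in tissue. The cardiac muscle list stood at 3400, 2620, 1150 and 912 CPM in WT and at 2910, 1680, 1750 and 965 in KO. The part of non-neural cells in the slope was not tested. Msx1 stood at 53.1, 119, 179 and 440 CPM in WT and at 38.0, 60.2, 195 and 337 in KO. Zic5 stood at 45.4, 89.9, 196 and 471 in WT and at 46.2, 80.2, 226 and 488 in KO. The roof plate list summed to 427, 633, 920 and 1670 CPM in WT and to 354, 438, 1010 and 1380 in KO. The ventral list was at 813, 777, 903 and 549 in WT and 802, 859, 725 and 533 in KO, lowest in the last bin of both. Median depth was higher along the bins as well (1549, 1697, 1887 and 2134.5 UMIs in WT, 1622, 1729, 2097 and 2682 in KO), and its part in the result was not tested. Gm48898 followed the same order, at 2.15, 9.14, 59.6 and 88.1 CPM in WT and 1.09, 1.82, 7.79 and 65.3 in KO.

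**Figure D3:**
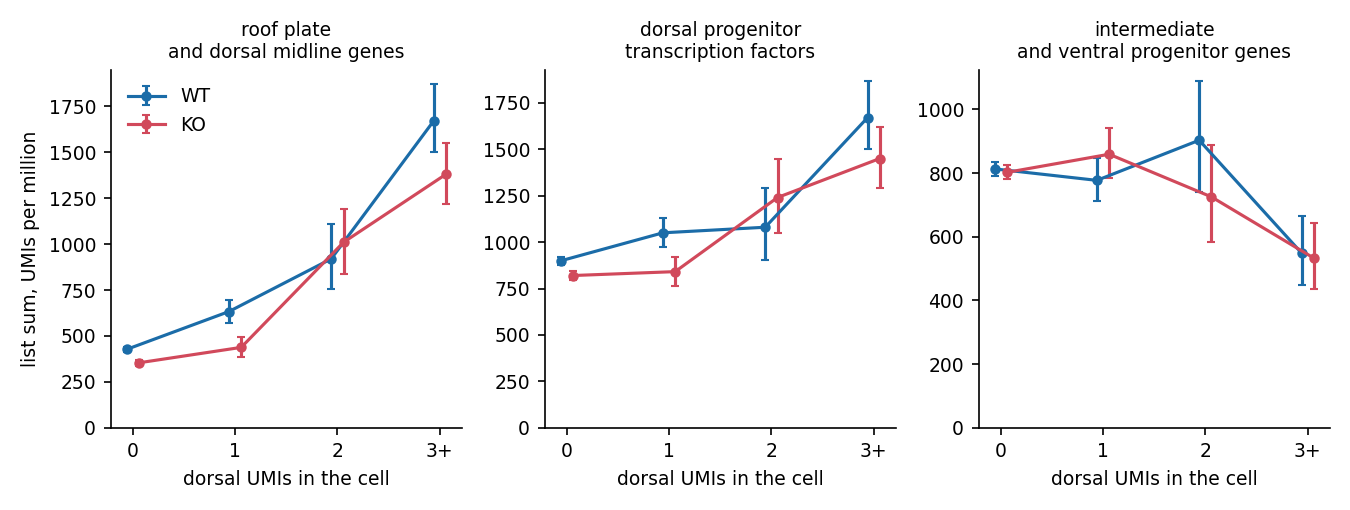
Summed level of gene lists, in CPM, in cells that hold 0, 1, 2 and 3 or more UMIs of the dorsal genes, WT and KO libraries. The cells have at least 1 UMI of the neural genes of the rule and no excluded gene, and include non-neural cells. Bars are exact 95% intervals of counting error. The roof plate list stands at 427 CPM with no dorsal UMI and 1670 with 3 or more in WT, and at 354 and 1380 in KO.

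The dorsal cells were not all alike. They were split by Olig3: 54 WT (37.2%) and 44 KO (32.6%) cells had Olig3 and no other dorsal gene, 54 (37.2%) and 60 (44.4%) had it with another, and 37 (25.5%) and 31 (23.0%) had other dorsal genes without it. In textbook terms Olig3 belongs to the progenitors and the other genes to the roof plate and midline. With so few UMIs, a cell without an Olig3 UMI may still have expressed it.

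Msx3 was higher in the cells with Olig3. It had 21 and 23 UMIs in the WT cells with Olig3 alone and with another gene (185 and 198 CPM), and 1 in the cells without Olig3 (12.4). In KO it had 29 and 15 (275 and 102 CPM) against 2 (26.5). The ratio of Olig3 alone over no Olig3 was 3.90 (1.26 to 9.27) in WT and 3.37 (1.39 to 6.49) in KO. Pax7, of dorsal progenitors, had 6, 6 and 1 UMIs in the 3 WT subsets and 9, 7 and 1 in KO, and the same ratio spanned 0 in both (2.09, -0.95 to 7.62 and 2.69, -0.17 to 8.14). The neuron list was highest in the cells with Olig3 alone, at 484, 310 and 235 CPM in WT and 663, 178 and 239 in KO, and 1 cell of each library held 16 of its UMIs.

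Wnt4 and Gm48898 had the opposite order in WT. Wnt4 stood at 44.0, 60.3 and 223 CPM in WT (-2.34, -4.13 to -0.86) and at 28.4, 68.3 and 79.6 in KO, where the interval spanned 0 (-1.48, -4.11 to 0.74). Gm48898 had 1, 11 and 12 UMIs in the 3 WT subsets and 1, 11 and 2 in KO.

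Msx1 and Zic5 were present in each subset. Zic5 was highest where Olig3 met another dorsal gene, at 290, 534 and 235 CPM in WT and 303, 485 and 305 in KO. Msx1 stood at 176, 456 and 409 CPM in WT but at 265, 307 and 252 in KO, so its order was not shared by the libraries. Blood transcripts differed between the subsets: the erythroid list stood at 6950, 3670 and 18300 CPM in WT and 2060, 1630 and 7350 in KO. In each library 1 cell without Olig3 set that order, and without it the last subset stood at 3880 (WT) and 1930 CPM (KO), below Olig3 alone in both. The median was 8 UMIs per cell in each WT subset and 4, 4 and 5 in KO.

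**Figure D4:**
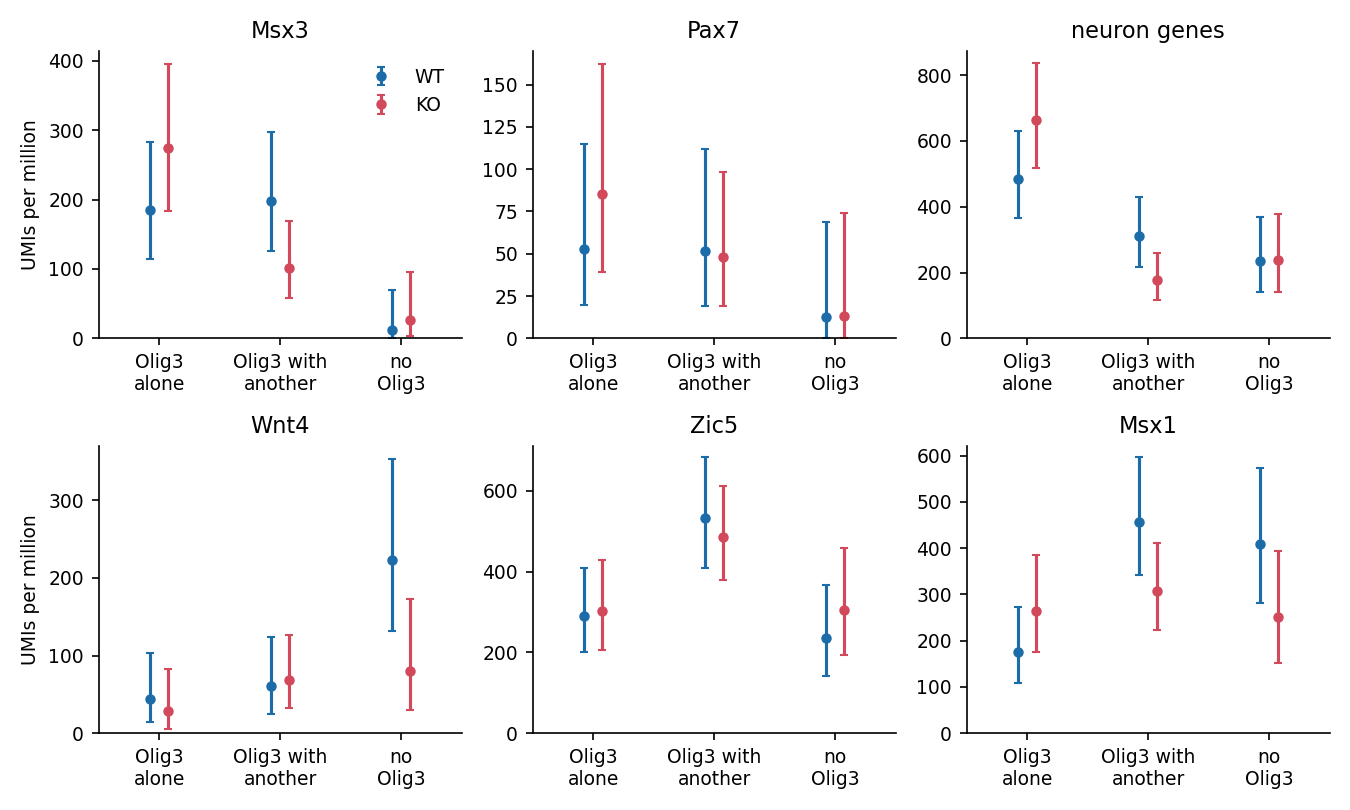
Levels of named genes and of the neuron list, in CPM, in dorsal cells with Olig3 alone, with Olig3 and another dorsal gene, and with other dorsal genes without Olig3, WT and KO libraries, with exact 95% intervals of counting error. Msx3 is at 12.4 and 26.5 CPM where Olig3 is absent, and WT Wnt4 is highest there at 223 CPM.

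Transcripts of other cell types were present in the dorsal cells. The erythroid list had a median of 8 UMIs per WT dorsal cell and 4 per KO cell, and 141 of 145 and 105 of 135 cells had 3 or more. A single WT cell held 1176 of the 2692 erythroid UMIs, 38.5% of its own total, and 1 KO cell held 414 of 1010. The cardiac muscle list had a median of 2 UMIs per cell in both, at most 14 in a WT cell and 100 in a KO cell. By contrast the lists of surface ectoderm and of otic and placode tissue reached at most 2 UMIs in any cell. Markers at 0 in both libraries were Isl2 (neurons), Grhl3 (surface ectoderm), Oc90, Fbxo2 and Spp1 (otic), Lbx1 and Dmrt2 (somite), Tie1 (endothelium) and Alx4 (arch mesenchyme). Leaving out the 6 WT and 4 KO dorsal cells that met the erythroid or endothelial definition or held at least 10 cardiac UMIs, a choice made after seeing the data, left 139 and 131 cells, and without them Myh7, a heart myosin heavy chain, went from 1.33 to 0.20 (-0.90 to 1.34) for KO over WT, and the embryonic globin genes Hba-x from -1.72 to -1.29, Hbb-bh1 from -1.38 to -0.88 and Hbb-y from -1.59 to -0.96.

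Prdm6 itself could not be followed in these cells. It had 0 UMIs in the WT dorsal cells and 1 in KO, and 4 and 3 in other neural cells. The WT library as a whole held 104 Prdm6 UMIs (5.00 CPM) against 59 in the KO library (3.12 CPM), at -0.68 (-1.17 to -0.21). Reads from the 3′ end need not lie in the deleted part, so they do not check the deletion. Of the genes that act on the same histone mark, Kmt5a had 82 and 86 UMIs, Kmt5b 19 and 21 and Kmt5c 11 and 7, and the list of Prdm6 and H4K20 methylation genes summed to a KO over WT ratio of 0.01 (-0.34 to 0.36).

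The dorsal cells took up a similar share of both libraries. They were 1.21% (1.02 to 1.43) of WT and 1.38% (1.16 to 1.63) of KO cells, a ratio of 0.19 (-0.16 to 0.54). After thinning to 1000 UMIs, which left out 1361 shallower WT and 125 KO cells, they were 63 of 10597 (0.595%) and 50 of 9640 (0.519%), a ratio of -0.20 (-0.76 to 0.36). The direction thus turned with depth and both intervals spanned 0.

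The dorsal genes themselves, described in cells they chose, were near equal for Wnt1 (KO over WT 0.01, -0.37 to 0.38) and Olig3 (-0.15, -0.40 to 0.10), and lower in KO for Rspo1 (-0.62, -1.18 to -0.07). Rspo1 was at 0.03 (-1.14 to 1.18) after thinning to 1000 UMIs and at -1.45 in the cells with at least 3 dorsal UMIs. Read in the cells chosen without them, Wnt1 was at 0.19 (-0.29 to 0.68), Olig3 at -0.41 (-0.99 to 0.15) and Rspo1 at -0.52 (-1.63 to 0.55), and Wnt3a (-1.37 to 0.82) and Lmx1a (-1.97 to 1.39) were both at -0.27. Each of these 5 intervals spanned 0. For Wnt1 the counts leave room for a level up to 0.68 higher or 0.29 lower in KO on the log2 scale.

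Across 4248 genes with at least 30 UMIs in the dorsal cells the median KO over WT ratio was -0.01, with the 5th percentile at -0.71 and the 95th at 0.69. At least 2-fold and with an interval clear of 0, 49 genes (1.15%) were higher in KO and 52 (1.22%) lower. Whatever the interval, 54 (1.27%) and 67 (1.58%) were 2-fold apart. The midline genes were not among them: Msx1 was at -0.28, Zic5 at 0.07, Msx3 at -0.04, Axin2 at -0.19 and Fzd10 at -0.16, each with an interval across 0, and 0 of the 6 roof plate genes tested passed. In cells thinned to 1000 UMIs the sign of Msx1 changed, to 0.33 (-0.57 to 1.23), and that of Zic5, to -0.49 (-1.44 to 0.42). Bmp4 had 6 and 7 UMIs (0.15, -1.65 to 1.99).

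Ranked by the bound of the interval nearest 0, the lowest gene in KO was Hoxb8. It (chr11:96281905-96285315), a homeobox gene of trunk levels of the body axis, had 58 UMIs in 19 of 145 WT cells and 9 in 5 of 135 KO cells, with at most 8 and 3 in a cell. That made 187 CPM against 27.5 CPM, or -2.76 (-3.96 to -1.74) for KO over WT, and -1.73 (-2.40 to -1.11) in the wider set of cells with at least 1 dorsal UMI. The share of cells with Hoxb8 was 13.1% (8.08 to 19.7) and 3.70% (1.21 to 8.43).

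Hoxb8 was lower in the KO library in the other cell sets too. It was at -1.08 (-1.56 to -0.61) in other neural cells and -1.93 (-2.48 to -1.40) in Sox10 cells. The other Hox genes of paralogue groups 6 to 9, grouped after the values were seen, had 16 and 7 UMIs in the dorsal cells (-1.27, -2.79 to 0.09), and were at -1.46 (-2.41 to -0.59) in other neural cells and -1.51 (-2.57 to -0.55) in Sox10 cells. Hox genes of groups 1 to 3 had 137 and 140 UMIs (-0.05, -0.40 to 0.31) and those of groups 4 and 5 had 70 and 64 (-0.21, -0.72 to 0.30). Of the WT cells with Hoxb8, 8 of 19 also had another gene of groups 6 to 9, against 5 of 126 cells without it. In KO these were 3 of 5 and 3 of 130. Hox genes mark position along the body axis, and the posterior limit of the dissected tissue cannot be told apart from the genotype in 2 libraries. Otx2, En1, En2 and Cdx2, of levels anterior and posterior to the hindbrain, were at 0 in the dorsal cells of both libraries. Cdx1, a posterior gene like Cdx2, had 1 WT and 3 KO UMIs there, too few for a ratio, and 2 and 5 in other neural cells.

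Of the crest list, 10 of 11 genes with enough UMIs were below 0 and 1 above, beside 2160 of 4248 below 0 over all genes. The median was -0.32 beside -0.01 over all genes. The list summed to 2600 CPM in WT and 2080 in KO (-0.32, -0.47 to -0.17). In other neural cells it was at -0.16, and in the dorsal cells thinned to 1000 UMIs at -0.05 (-0.41 to 0.30), an interval that spans 0. Sox9 had 59 UMIs in WT and 22 in KO (-1.50, -2.28 to -0.77), and 18 of the WT UMIs were in 1 cell and 11 in another. With the cells that held an excluded gene put back, Sox9 was at -0.48. Nr2f1, a nuclear receptor of neural and crest cells, had 268 and 227 UMIs (-0.32, -0.58 to -0.06), which turned to 0.17 on thinning. Igfbp5, a secreted binding protein for insulin-like growth factors, had 102 and 48 UMIs (-1.16, -1.69 to -0.66), and it too turned on thinning, to 0.62 (-0.79 to 2.07).

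The BMP list was slightly lower in KO, at -0.20 (-0.35 to -0.05), and other neural cells were at -0.23. Of its genes 5 of 8 were below 0, near the share over all genes (2160 of 4248), and none was past 2-fold. The Wnt list was at 0.01 (-0.11 to 0.13), with 7 genes above and 8 below 0. The roof plate list was at -0.17 (-0.37 to 0.03), the dorsal progenitor list at -0.09 (-0.28 to 0.11) and the ventral list at -0.17 (-0.45 to 0.12). The pan-neural list was at -0.11 (-0.20 to -0.02). It held Lin28b, an RNA-binding protein of early progenitors, lower in KO with 41 and 21 UMIs (-1.04, -1.87 to -0.25), and Fabp7, a fatty acid binding protein of radial progenitors, higher with 37 and 68 UMIs (0.80, 0.20 to 1.42).

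Cell cycle lists differed little between the libraries. The S phase list was at -0.04 (-0.13 to 0.05). Its lowest members included Pcna, the DNA polymerase clamp, with 132 and 81 UMIs (-0.78), and Fen1, a flap endonuclease, with 34 and 16 (-1.16). The G2 and M phase list was at 0.09 (0.02 to 0.15), and other neural cells were at 0.12. Of its genes 31 of 45 were above 0, beside 2088 of 4248 over all genes. Mki67, a proliferation marker, had 57 and 89 UMIs (0.57) and Cenpf, a kinetochore protein, 83 and 123 (0.49), whereas Cdk1, the mitotic kinase, had 51 and 33 (-0.70). The list as a whole was at 0.05 without the deepest 5% of cells, with an interval that spans 0.

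Several of the genes highest in KO were as high in KO elsewhere. Ncl, the nucleolar protein nucleolin, had a median of 4 UMIs per WT dorsal cell and 7 per KO cell (0.75, 0.60 to 0.89), and was at 0.71 in other neural cells. The histone genes Hist1h2ae and Hist1h1b had 21 and 67 UMIs (1.60, 0.87 to 2.38) and 24 and 65 UMIs (1.36, 0.67 to 2.10), and were at 1.92 and 1.67 in other neural cells. Gm42418 and AY036118, which share sequence with ribosomal RNA, were at 1.02 and 1.31, and at 1.31 and 1.35 in other neural cells. These gaps were thus shared by the other neural cells of the KO library.

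Other genes are given beside their ratio in other neural cells. The difference between the cell sets was not tested, and several values were smaller in the wider set of cells with at least 1 dorsal UMI. Mphosph9, a protein of the centriole, had 7 UMIs in WT and 31 in KO (2.07, 0.86 to 3.50), against -0.15 in other neural cells, and was at 0.81 in the wider set. Rab5c, a small GTPase of early endosomes, had 15 and 46 UMIs (1.54, 0.67 to 2.49), against -0.05, and was at 0.33 after thinning and 0.38 in the wider set. Pinx1 had 7 and 27 UMIs (1.87), against 0.10, and Tex30 had 8 and 29 (1.78), against -0.18 and with 0.61 in the wider set.

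Map1lc3a, of autophagosomes, had 25 UMIs in WT and 7 in KO (-1.91). It was at -0.82 (-1.35 to -0.31) in other neural cells, and at -0.45 (-1.06 to 0.14) in the wider set. Nrxn2, a neuronal adhesion protein, had 33 and 11 UMIs (-1.66), against -0.19, and Pmpcb, a mitochondrial protease subunit, 34 and 12 (-1.58), against -0.36.

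Blood and sex-linked transcripts moved with the library beside all of these values. The erythroid list was at -1.49 (-1.60 to -1.39) in the dorsal cells and -0.72 in other neural cells, and at -1.05 without the dorsal cells that held genes of blood, vessel or heart. Xist, the RNA of the inactive X chromosome, had 45 and 138 UMIs (1.54, 1.05 to 2.06), while the Y-linked genes Ddx3y, Eif2s3y, Kdm5d and Uty had 11, 6, 9 and 4 UMIs in WT and 10, 3, 3 and 1 in KO. Sex-linked levels that differ between the libraries cannot be told apart from the genotype. Their part in the gene differences was not tested.

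**Figure D5:**
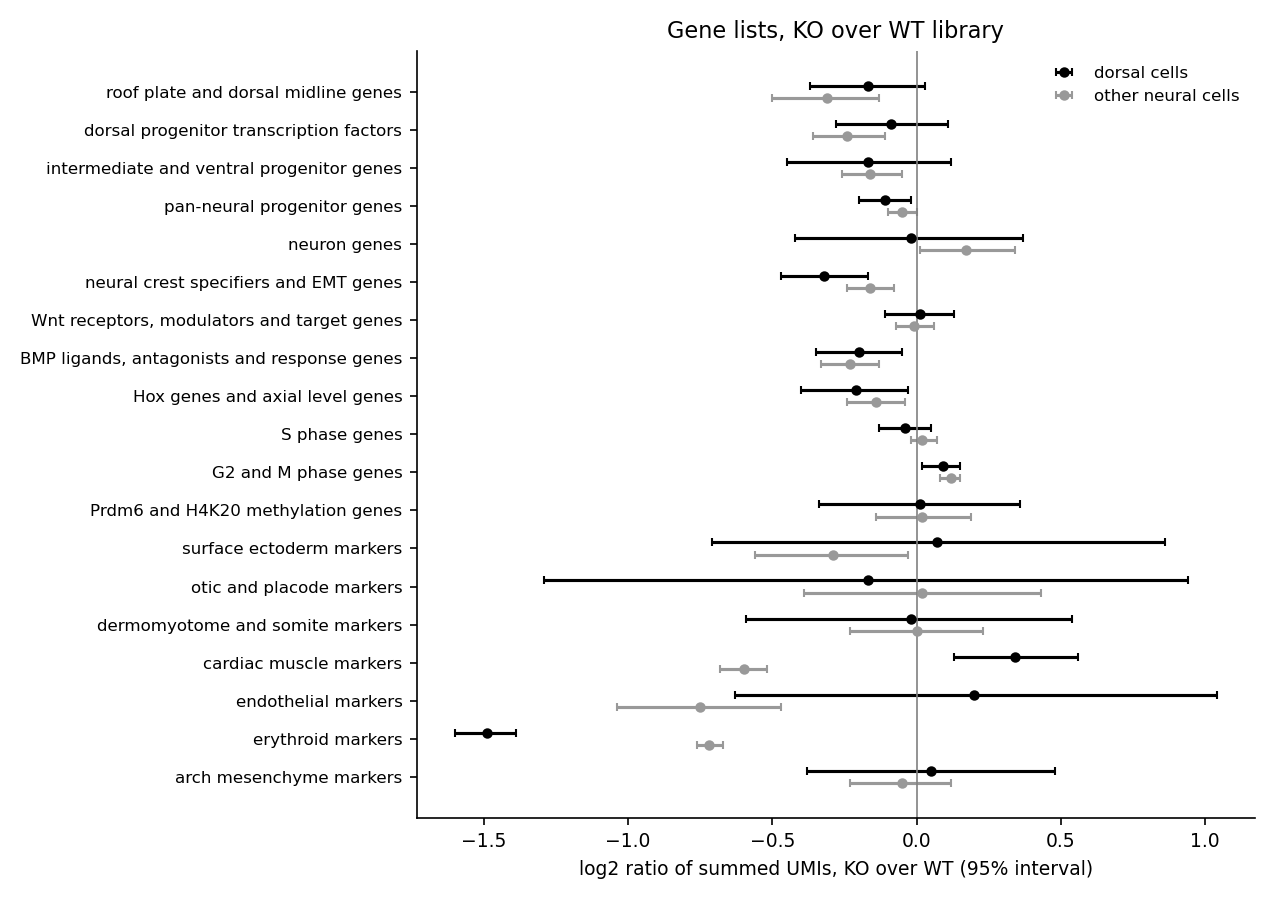
Log2 ratio of KO over WT of the summed UMIs of each gene list, in the dorsal cells and in other neural cells, with exact 95% intervals of counting error and a line at 0. The erythroid list is lowest in the dorsal cells at -1.49, the crest list is at -0.32 and the Wnt list at 0.01.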

How the data were processed

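Single cells from 1 WT and 1 KO library were measured with a 3′ droplet assay (10x Genomics). The authors counted UMIs with Cell Ranger 1.3.1 (mm10 per the submitters' processing notes, which also name Scanpy; the methods name a human genome with ZsGreen1), normalised each cell to its library size and took the square root. These deposited square-root values have no unit of their own. Squaring them and dividing by the value of 1 UMI gave whole UMIs for 100% of the nonzero values within 0.01, in 18131 gene columns. Since sums of recovered UMIs from 1 library per genotype allow no test over samples, values are summed UMIs with exact 95% intervals (Poisson for CPM, Clopper-Pearson for shares, conditional binomial for ratios), a floor of 3 counts and a minimum of 30 UMIs per gene. Counts of 2-fold genes between cell sets used 0.5 UMI added to each sum. Gene places are from GENCODE on GRCm38. Python 3.11.15, numpy 2.4.6, scipy 1.17.1 and pandas 2.3.3 were used, and the code was tested on simulated data.

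The dorsal cells, lists and comparisons were chosen with earlier results of these data known. Named genes were the rule genes; from each list, up to 5 by UMIs and the 2 highest and 2 lowest KO over WT; the 12 genes highest and 8 lowest over other neural cells; the 10 highest and 10 lowest KO over WT by the bound nearest 0; and Prdm6 and Bmp4. Any other gene was named after its values were seen, to account for a list. The methods name a doublet caller and none was run here; leaving out the deepest 5% of cells was an alternative. Other alternatives were the dorsal UMI threshold, the neural and excluded genes, thinning to 1000 UMIs, scaling, the minimum of UMIs, and the cells compared. No sequence is printed, since no result rests on one. Some genes of the lists are counted in the sums but not reported by name here.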

Additional observations from a re-analysis of the deposited data

Results flagged for a closer look

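The cardiac muscle list had opposite signs in the dorsal cells and in other neural cells, a difference that was not tested and that several other settings did not keep. KO over WT was 0.34 (0.13 to 0.56) in the dorsal cells and -0.60 in other neural cells. The other neural cells held more heart transcripts, at 2540 CPM in WT and 1670 in KO, against 1000 and 1270 in the dorsal cells. Myh7 was at 1.33 and -0.41, and Myl4, an atrial myosin light chain, at 0.60 and -0.96. A single KO dorsal cell held 100 of the 416 cardiac UMIs of the KO dorsal cells. In the dorsal cells the list was at 0.02 (-0.22 to 0.25) without the top cell of each library and below 0 under 4 settings: -0.20 thinned to 1000 UMIs, -0.46 with 1 dorsal UMI enough, -0.29 (-0.55 to -0.03) without the deepest 5% of cells and -0.13 without the cells that held genes of blood, vessel or heart. Under the last 3 of these Myh7 was at 0.27, 0.29 and 0.20, each with an interval across 0, and Myl4 was at -0.63 and -0.28 under the first pair of them.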

How the results depend on the processing

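Of 376 values of the main results under 15 settings, 320 stayed, 51 moved and 5 turned. A value stayed if it lay within its main interval. Counts of genes have no interval and stayed if they were near the main count. Turned means that a value whose interval lay on 1 side of 0 changed sign. Of 1971 values of named genes, 1850 stayed, 114 moved and 7 turned. Counting values whose interval spanned 0, the sign changed in 42 and 101, among them the share of cells, the neuron, Wnt, H4K20 and somite lists, Msx1 (0.33), Zic5 (-0.49) and Fzd3 (-1.42, -2.77 to -0.24) on thinning and the endothelial list with 3 dorsal UMIs required. Thinning to 1000 UMIs cut the dorsal cells to 63 WT and 50 KO. The KO over WT ratio of their share was then -0.20, the lists stood at -0.43 (roof plate), -0.36 (dorsal progenitor), -0.73 (ventral), 0.66 (neuron), -0.05 (crest), -0.16 (Wnt), -0.37 (BMP), -0.46 (H4K20), 0.66 (somite), -1.30 (erythroid) and -0.20 (cardiac, turned), Rspo1 turned to 0.03, Ncam1 to -0.40, Nr2f1 to 0.17 and Igfbp5 to 0.62, and 17 genes were higher and 17 lower in KO. With 1 dorsal UMI enough, the crest list was at -0.17, S phase at 0.05, erythroid at -1.14, cardiac at -0.46 and Myl4 at -0.63 (both turned). Olig3 with another gene was then in 10.7% of WT and 14.3% of KO dorsal cells and no Olig3 in 53.1% and 49.9%, 112 genes were lower in KO, 31 were higher and 21 lower than in other neural cells, and Prdm6 had 5 WT UMIs. With 3 required, the endothelial list was at -0.95, erythroid at -1.25, cardiac at 0.08 and Rspo1 at -1.45. Olig3 with another gene was in 46.5% and 60.5%, no Olig3 in 11.8% of KO cells, and 124 genes were higher than in other neural cells. A minimum of 10 UMIs gave 103 genes higher and 147 lower in KO, and 204 higher and 204 lower than other neural cells; a minimum of 100 gave 4, 5, 21 and 13, and no minimum 124, 172, 963 and 224. Against other neural cells with Pax3, Pax7, Zic1 or Zic2 the last pair was 40 and 14. With the neural gene only from Sox1, Sox2 and Sox3, the erythroid list was at -2.43 and cardiac at 0.59, and with no excluded gene erythroid was at -1.62. Without the dorsal cells that held genes of blood, vessel or heart, a setting added after seeing the data, erythroid was at -1.05, cardiac turned to -0.13 and Nppa to -0.08. Without the deepest 5% of cells cardiac turned to -0.29, Myl4 to -0.28 and Nppa to -0.39, and without the top cell of each library cardiac was at 0.02. The causes were not tested, beyond the fewer cells or genes that thinning and the minimums leave. Other scalings shifted all ratios by -0.008 and -0.001. Leaving out a replicate was not possible with 1 library per genotype. No paired analysis was possible because the genotypes share fewer than 2 replicate numbers. The depth limits genes under the minimum of 30 UMIs, Prdm6 and most BMP ligands among them.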

Other observations

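Genes of the dermomyotome and somite and of the arch mesenchyme were read as tissue that could lie beside the neural tube. The somite list had 55 UMIs in the WT and 57 in the KO dorsal cells (KO over WT -0.02, -0.59 to 0.54), at 177 and 174 CPM, and stood at -0.48 and -0.51 against other neural cells. The arch mesenchyme list had 89 and 97 UMIs (0.05, -0.38 to 0.48) and stood at -0.57 and -0.47 against other neural cells. The endothelial list had 24 and 29 UMIs (0.20, -0.63 to 1.04), of which 11 were in 1 KO cell. The surface ectoderm and otic lists had 28 and 31 and 16 and 15 UMIs, with KO over WT of 0.07 and -0.17. The neuron list was at -0.02 (-0.42 to 0.37).

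Hox genes of paralogue groups 1 to 3, which are used in the hindbrain, were seen in 84 WT and 78 KO dorsal cells. No Hox UMI of any group was seen in 38 and 40. Hoxa3, a gene of the posterior hindbrain, had 24 UMIs in WT and 43 in KO (0.76, 0.01 to 1.55). It was at -0.34 (-0.76 to 0.07) in other neural cells and -0.56 (-1.22 to 0.07) in Sox10 cells, and in the dorsal cells at 0.02 (-0.44 to 0.48) with 1 dorsal UMI enough and 1.75 (-0.31 to 4.30) after thinning to 1000 UMIs. Of the dorsal cells with Hoxb8, 15 of 19 in WT and 4 of 5 in KO also had Olig3.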
